A study of Ovis aries with 3 samples.

Results

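FOS, FOSB, JUN and ATF3 are genes of the AP-1 family of transcription factors. They were found by symbol in the gene lists of all 3 libraries, where each symbol was carried by a single identifier: ENSOARG00000001783 for FOS, ENSOARG00000009983 for FOSB, ENSOARG00000009999 for JUN and ENSOARG00000010493 for ATF3. They are 4 of the 26247 genes counted. The libraries were droplet-based single-cell RNA libraries of rumen epithelium from Hu sheep aged 42 days, 1 library per diet. One lamb group had alfalfa hay added to milk (hay), one had concentrate starter added to milk (concentrate), and the last had milk only. All 3 groups therefore drank milk, and hay and concentrate are each set against milk only below. The number of animals behind a library is not given in the labels, so differences between diets have no replicate check and no p-value. All intervals below are 95% intervals that cover counting error only.

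AP-1 is a dimer of a FOS-type and a JUN-type protein, or of a JUN-type and an ATF-type protein, that binds DNA and switches on genes of growth, stress and differentiation. FOS, FOSB, JUN and ATF3 are immediate early genes: their RNA is made within minutes of growth factor, cytokine, mechanical or stress signals, which reach the genes largely through MAP kinases, and it decays fast. In stratified epithelia AP-1 is known for its part in keratinocyte proliferation and differentiation. These genes are also known to be switched on while a tissue is taken apart. Here the tissue was digested repeatedly in warm trypsin, per the labels' protocols, so diet and any difference in handling between the libraries cannot be told apart.

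Cells with at least 500 genes and under 20% mitochondrial UMIs were kept, which left 7031 hay, 4891 concentrate and 3850 milk-only cells with a median of 5887, 8050 and 11021 UMIs. A UMI marks 1 captured RNA molecule. Levels are given in CPM, the UMIs of a gene per 1000000 UMIs of all cells of a pool. Cells were sorted into classes by marker genes, at least 3 different markers being required, and cells without such markers of another cell type were taken as keratinocytes: 7002 in the hay, 4715 in the concentrate and 3480 in the milk-only library. All 6 basal keratinocyte markers with a symbol were detected in the keratinocytes of each library and summed to between 6588 and 8229.6 CPM. Of the deposited barcodes, hay and concentrate shared 28, hay and milk only 17, and concentrate and milk only 15. Among the kept cells, 31 hay, 17 concentrate and 17 milk-only cells carried a barcode found in another library. Without them the summed AP-1 log2 ratio to the milk-only library was -1.80 in hay and -1.67 in concentrate keratinocytes, and that of concentrate to hay was 0.13. In an unsupervised clustering the libraries stood apart, with 7 of the 9 keratinocyte clusters holding between 90.8% and 99.5% of their cells from 1 library.

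In keratinocytes, 3 of the 4 genes were far lower in both libraries with solid feed than with milk only, in the order ATF3, JUN and FOS by the size of the difference, while FOSB differed little. FOS, the best known partner of JUN in the AP-1 dimer, had 444 CPM (438 to 450.0) in hay, 494 CPM (487 to 500.1) in concentrate and 1340.5 CPM (1330.1 to 1351) in milk-only keratinocytes. It was thus 3.02-fold (2.97 to 3.07) lower in hay and 2.72-fold (2.67 to 2.76) lower in concentrate than in milk only, with no overlap of the intervals. JUN, a partner of FOS-type proteins, had 563 CPM (556 to 569.6) in hay, 602 CPM (595 to 609) in concentrate and 1979 CPM (1966 to 1991) in milk-only keratinocytes. Its level was 3.52-fold lower in hay and 3.29-fold lower in concentrate than in milk only. ATF3, a stress-induced family member that can dimerise with JUN and often represses its targets, had 41.8 CPM (39.9 to 43.7) in hay, 54.9 CPM (52.7 to 57.1) in concentrate and 356 CPM (350.5 to 361) in milk-only keratinocytes. That is a difference of 8.52-fold (8.12 to 8.94) in hay and 6.48-fold (6.21 to 6.77) in concentrate, the greatest of the 4 genes. FOSB, a second FOS-type partner, had 13.3 CPM (12.2 to 14.4) in hay, 14.4 CPM (13.3 to 15.5) in concentrate and 17.3 CPM (16.2 to 18.5) in milk-only keratinocytes. Its difference of 1.30-fold in hay and 1.20-fold in concentrate was the least of the 4 and did not reach the 1.5-fold used here to call a gene. The summed log2 ratio of the 4 genes was -1.80 for hay and -1.66 for concentrate. Leaving out the cluster with the highest summed level, nearly all of it milk-only cells, gave 0.06 and 0.19, a change whose direction follows from how that cluster was picked. Leaving out the highest cluster of every library gave -1.09 and -1.32.

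So 3 of 4 members were called lower and 0 of 4 higher in each comparison with milk only, and the 2 comparisons share the milk-only library. Over all genes with at least 10 CPM in 1 of the libraries compared, 21.4% were called at least 1.5-fold lower and 5.11% higher in hay, and 13.0% lower and 9.64% higher in concentrate, with an interval of the ratio that excludes 1. Of the 4597 genes so measured for hay, 1.76% had a lower ratio than ATF3, 4.22% than JUN, 5.29% than FOS and 33.4% than FOSB. For concentrate, the shares among 4731 genes were 1.40% for ATF3, 3.06% for JUN, 3.89% for FOS and 26.4% for FOSB. The order of the members was thus the same on both diets. Concentrate against hay gave a ratio of 1.31 (1.24 to 1.40) for ATF3, 1.11 (1.09 to 1.13) for FOS, 1.07 (1.05 to 1.09) for JUN and 1.08 (0.966 to 1.21) for FOSB. None of the 4 was called there, against a background of 13.1% of genes called higher and 1.73% called lower among 4446. In the pooled UMIs, hay and concentrate keratinocytes thus differed less than 1.5-fold in each gene. The size and the sign depended on the processing: for the sum of the 4 genes the log2 ratio of concentrate to hay was 0.13 as scaled here, -0.06 with median-of-ratios scaling, -0.18 with at least 1000 genes per cell, 0.70 with each cell weighted alike and 1.36 in the clusters with the highest summed level.

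Fewer keratinocytes of the solid-feed libraries had a UMI of FOS, JUN or ATF3, and far fewer had many. For this comparison each cell was thinned to 2000 UMIs, which removes the difference in depth, and 86 concentrate and 229 milk-only keratinocytes with fewer UMIs were left out. With a UMI of FOS were 24.3% (23.3 to 25.3) of hay, 22.1% (20.9 to 23.3) of concentrate and 36.4% (34.8 to 38.1) of milk-only keratinocytes, and before thinning 37.7%, 33.7% and 45.5%. With a UMI of JUN were 33.3% of hay, 36.6% of concentrate and 49.4% of milk-only keratinocytes, and before thinning 47.2%, 60.0% and 67.9%. ATF3 had the widest gap in this measure too, with a UMI in 5.36% of hay, 6.98% of concentrate and 25.2% of milk-only keratinocytes, and before thinning in 9.55%, 11.1% and 34.4%. FOSB was found in 2.17% of hay, 3.35% of concentrate and 3.08% of milk-only keratinocytes after thinning and in 5.06%, 6.94% and 12.5% before it. The gap between concentrate and milk only in FOSB-positive cells was therefore seen only at full depth, and the thinned intervals of 2.85 to 3.91 and 2.51 to 3.73 overlap. No cell class is known to lack these genes, so no class gives their free-RNA background. Discarded barcodes with under 500 genes had a summed level of 91.5 CPM in the hay, 90.8 CPM in the concentrate and 103 CPM in the milk-only library.

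Over the 4 genes together, 60.8% of hay, 60.3% of concentrate and 48.3% of milk-only keratinocytes had no UMI among their 2000. Cells with 10 or more summed UMIs made up 7.55% of hay, 11.5% of concentrate and 29.0% of milk-only keratinocytes. The counts were far from evenly spread: at the same mean, a Poisson distribution gives 11.1%, 2.53% and 0.0396% of cells at 0, and the tenth of cells with the most summed UMIs held 65.9% of them in hay, 68.7% in concentrate and 51.3% in milk only. The most extreme single cells counted as keratinocytes had 27709 summed CPM in hay, 46033 in concentrate and 60028 in milk only. The concentrate cell lay in the cluster with raised macrophage markers, so it may not be a keratinocyte. The milk-only cell lay outside all milk-only clusters of at least 20 cells, where the highest value was 41049. Exactly 3 of the 4 genes were found in 326 and all 4 in 78 of 7002 thinned hay keratinocytes, in 281 and 85 of 4629 concentrate keratinocytes and in 683 and 79 of 3251 milk-only keratinocytes.

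**Figure D1:**
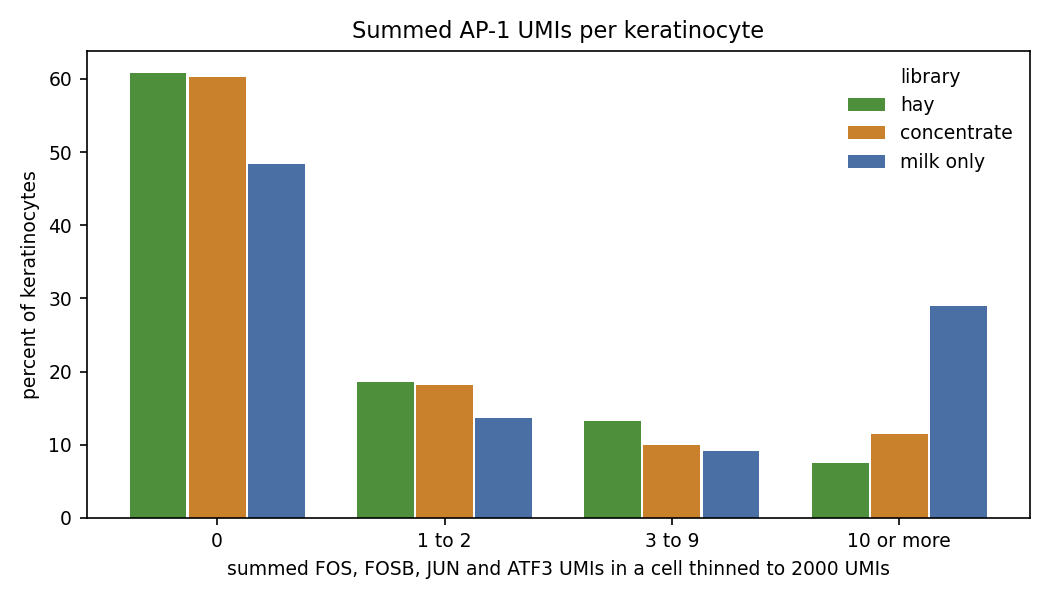
Percent of keratinocytes (vertical axis) of the hay, concentrate and milk-only library with 0, 1 to 2, 3 to 9, or 10 or more summed UMIs of FOS, FOSB, JUN and ATF3 among 2000 UMIs of the cell (horizontal axis). The bars at 0 are the tallest in every library, and 10 or more UMIs were found in 7.55% of hay, 11.5% of concentrate and 29.0% of milk-only keratinocytes.

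Cells were clustered without the 4 genes. Keratinocyte clusters without cycling markers were taken where nearly all cells, 93.8% to 99.5%, came from 1 library. Of these, the one with the higher summed level is called the AP-1-high and the other the AP-1-low cluster of that library. No further cluster met this rule. The cluster with raised differentiation markers did not, with 70.5% of its cells from 1 library. Since they were picked by their AP-1 level, the contrast between them is a description. In the hay library FOS was at 854 CPM in the high cluster of 2706 cells and at 57.7 CPM in the low cluster of 2989 cells. In the concentrate library FOS was at 2791 CPM in the high cluster of 989 cells and at 62.9 CPM in the low cluster of 2601 cells. In the milk-only library FOS was at 3742 CPM in the high cluster of 1011 cells and at 111 CPM in the low cluster of 1344 cells. FOS thus had the same order of diets in the high and in the low clusters. JUN had 1050.4 CPM in the hay, 2753 CPM in the concentrate and 5369 CPM in the milk-only high cluster, and 124, 192 and 264 CPM in the low clusters. ATF3 had 89.2 CPM in the hay, 312 CPM in the concentrate and 1028 CPM in the milk-only high cluster, and 1.79, 6.18 and 13.6 CPM in the low clusters. FOSB broke this order, with 27.2 CPM in the hay, 83.8 CPM in the concentrate and 48.6 CPM in the milk-only high cluster, so that concentrate lay above milk only. In the low clusters FOSB was close to undetectable, at 0.595, 1.10 and 1.04 CPM, and 0 of 2989 low-cluster hay cells had a FOSB UMI after thinning (Clopper-Pearson upper limit 0.123%).

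**Figure D2:**
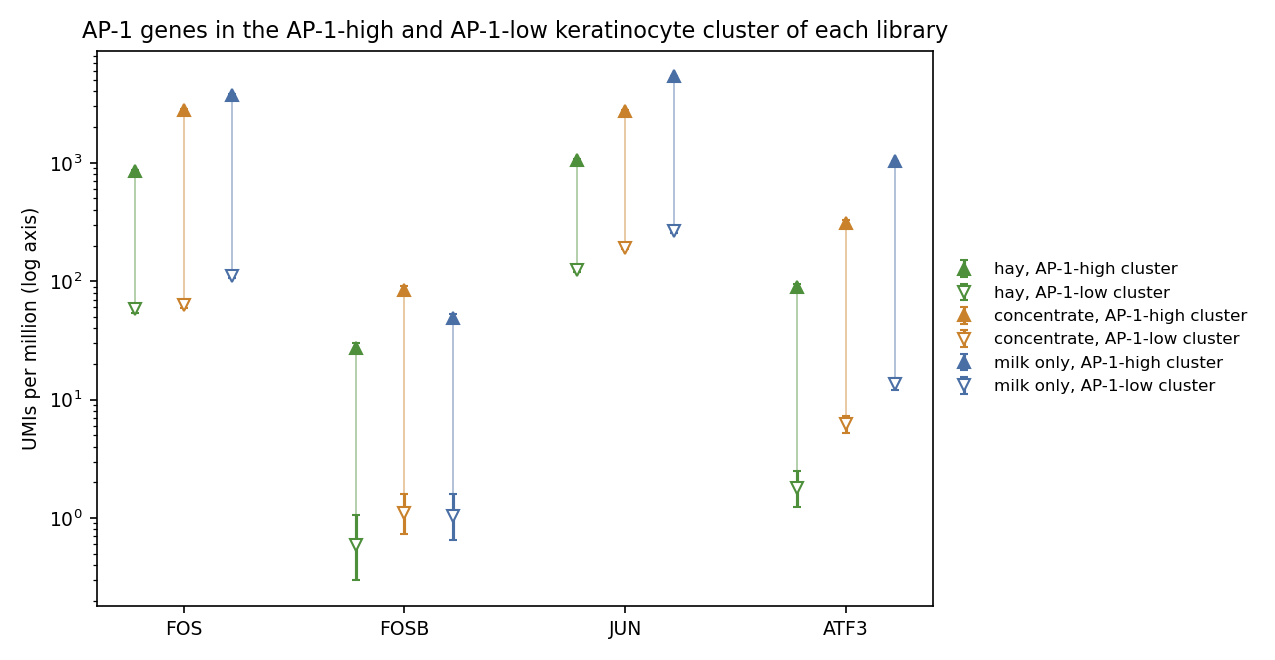
Level of each AP-1 gene in CPM (log axis) in the AP-1-high (filled, pointing up) and AP-1-low (open, pointing down) keratinocyte cluster of the hay, concentrate and milk-only library, with 95% Poisson intervals. For FOS, JUN and ATF3 the milk-only point is the top one of the high clusters, while for FOSB concentrate at 83.8 is above milk only at 48.6.

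Apart from the 4 members, the genes that led the hay high cluster were HSPA6, a heat-inducible chaperone, FBP2 and CDO1. Next in its order came SLC29A1, CDT1, MSH6, HACD3 and HELLS. CCDC80, FST and HSPA6 led the concentrate high cluster, and ZFP36, RCAN1 and ITPKC the milk-only one. ZFP36 encodes a protein that speeds the decay of short-lived RNAs. The milk-only high cluster held 1011 milk-only cells among its 1016. For the summed log2 ratio to milk only, the low clusters alone gave -1.08 for hay and -0.59 for concentrate, and the high clusters alone gave -2.31 for hay and -0.94 for concentrate. The concentrate high cluster was also shallow, with a median of 5126 UMIs against 8968 in the low cluster of that library. Weighting each cell alike in place of each UMI gave summed log2 ratios of -1.04 for concentrate against milk only and -1.74 for hay.

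Other measures moved with the AP-1 level of a keratinocyte. The correlation of the summed level with the percentage of mitochondrial UMIs was -0.18 in hay, -0.28 in concentrate and -0.22 in milk only (Pearson r over 7002, 4629 and 3251 thinned cells, which share a library and a fixed depth). With the total UMIs of a cell before thinning it was -0.01 in hay, -0.30 in concentrate and 0.15 in milk only. With the summed heat shock and chaperone genes it was 0.28 in hay, 0.32 in concentrate and 0.31 in milk only, much alike in the 3 libraries. Differentiation markers went the other way in milk only, at -0.32, and were near 0 elsewhere, at -0.07 in hay and -0.07 in concentrate. Macrophage markers gave r between -0.01 and 0.06 and T cell markers between -0.06 and 0.03 in the 3 libraries. In all keratinocytes the 11 T or NK markers summed to 1.46 CPM in hay (4 at 0), 2.74 CPM in concentrate (4 at 0) and 16.0 CPM in milk only (1 at 0), and the 14 macrophage markers to 1.89, 3.24 and 8.37 CPM, with 2 at 0 in each. T or NK markers were at 34.9 CPM in the milk-only high cluster and 11.7 CPM in its low cluster, with 2 and 3 of 11 markers at 0. The part of these measures in the AP-1 difference was not tested.

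Within the epithelium, differentiated keratinocytes had the lowest levels of each gene in each library. Cycling and differentiated cells were told apart by their markers, and the remaining epithelial cells are called other keratinocytes. FOS was at 121 CPM in differentiated, 496 CPM in cycling and 442 CPM in other keratinocytes of the hay library. In the concentrate library it was at 45.4 CPM in differentiated, 309 CPM in cycling and 601 CPM in other keratinocytes. In the milk-only library it was at 679 CPM in differentiated, 1094 CPM in cycling and 1904 CPM in other keratinocytes. Differentiated keratinocytes were thus 3.66-fold below the other keratinocytes for FOS in hay, 13.2-fold in concentrate and 2.80-fold in milk only. Cycling keratinocytes were close to the others in hay, with a ratio of 1.12, and lower in concentrate, at 0.514, and milk only, at 0.574. JUN was reduced less in differentiated cells, by 2.02-fold in hay, 3.46-fold in concentrate and 2.42-fold in milk only. ATF3 was at 5.26 CPM in differentiated cells of hay, 6.90 CPM in those of concentrate and 195 CPM in those of milk only. FOSB rested there on 1 UMI in the hay library and 2 UMIs in the concentrate library, against 140 UMIs in the milk-only library.

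FOS, JUN and ATF3 were lower with both solid feeds in each marker-gated epithelial class. FOS was 5.62-fold (4.81 to 6.60) lower in hay and 14.9-fold (12.4 to 18.2) lower in concentrate than in milk only among differentiated keratinocytes. Among cycling keratinocytes it was 2.20-fold lower in hay and 3.54-fold lower in concentrate, and among the other keratinocytes 4.31-fold and 3.17-fold lower. Concentrate was therefore the lower of the 2 feeds in cycling and differentiated cells, with a ratio to hay of 0.623 (0.596 to 0.651) and 0.376 (0.293 to 0.481), and the higher in the other keratinocytes, at 1.36 (1.33 to 1.39). ATF3 differed by 37.0-fold (18.0 to 92.2) in hay and 28.2-fold (17.6 to 48.6) in concentrate among differentiated keratinocytes, by 7.59-fold and 8.69-fold among cycling keratinocytes, and by 11.2-fold and 7.41-fold among the others. JUN differed by 3.95-fold in hay and 5.50-fold in concentrate among differentiated, by 2.94-fold and 3.95-fold among cycling, and by 4.73-fold and 3.85-fold among the other keratinocytes. The order ATF3, JUN, FOS thus held in cycling and other keratinocytes, and not in the differentiated ones, where FOS differed more than JUN. FOSB was 1.75-fold (1.54 to 1.99) lower in hay and 1.36-fold lower in concentrate among the other keratinocytes. FOSB had no difference beyond counting error between hay and milk only in cycling keratinocytes, with a ratio of 0.989 (0.783 to 1.25). In concentrate cycling keratinocytes it was 1.51-fold (1.18 to 1.94) lower. Among differentiated keratinocytes FOSB was 13.4-fold (2.37 to 533) lower in hay, on 1 UMI, and 12.4-fold (3.37 to 103) lower in concentrate, on 2 UMIs. Differentiated keratinocytes were 2.62% of hay, 3.13% of concentrate and 27.0% of milk-only cells, so the low levels of this class weighed most on the milk-only library. Their markers were counted at full depth, where the median cell had 5887 UMIs in hay, 8050 in concentrate and 11021 in milk only. The part of depth in these shares, and in the ratios of this class, was not tested. The differentiated class was uneven in each library. The tenth of its cells that held most had 85.1% of the FOS UMIs in hay, 93.8% in concentrate and 87.0% in milk only. The concentrate level rested on 112 UMIs of FOS, and after thinning 6 of 148 concentrate cells of this class had any. In hay it was 24 of 184 and in milk only 184 of 912. In the 1 cluster with raised differentiation markers FOS was not lower with solid feed, and milk only had the lowest level. FOS was there at 44.3 CPM (30.5 to 62.2) in 184 hay, 36.6 CPM (25.3 to 51.1) in 106 concentrate and 23.4 CPM (19.1 to 28.4) in 692 milk-only cells. The intervals of hay and milk only did not overlap. The summed level there was 159.7 CPM in hay, 208 CPM in concentrate and 145 CPM in milk only, and ATF3 rested on 1 UMI in hay and 4 UMIs in concentrate, against 35 UMIs in milk only. The milk-only level of the differentiated class thus came from its cells outside that cluster.

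**Figure D3:**
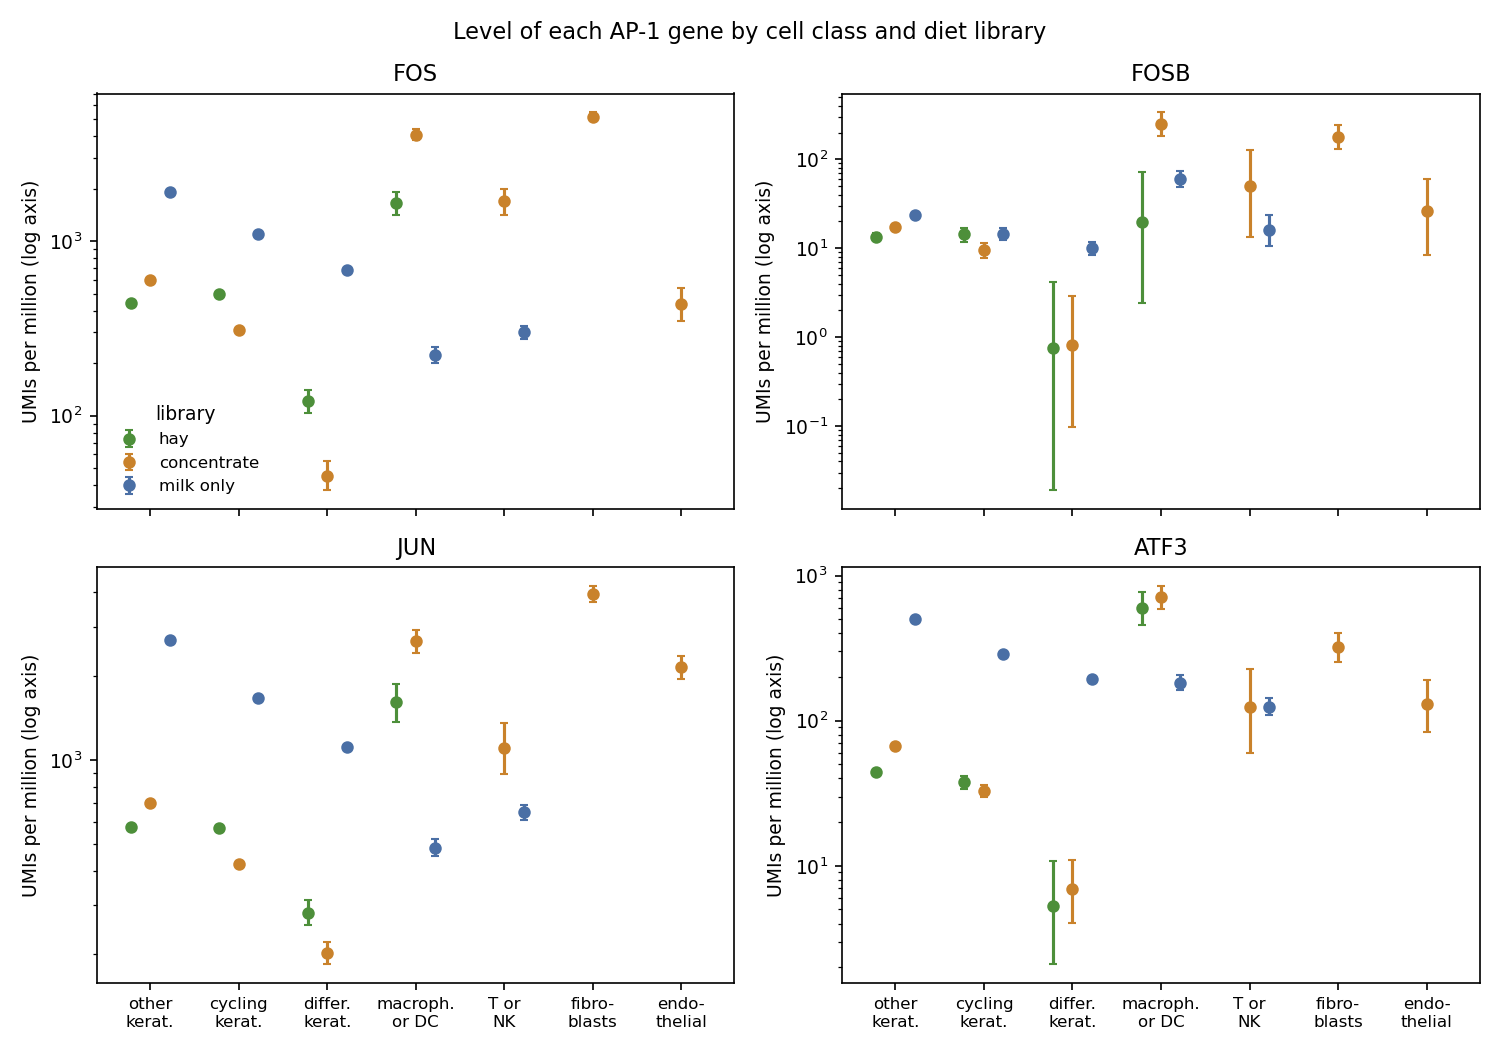
Level of FOS, FOSB, JUN and ATF3 in CPM (log axes, scaled per gene) in each cell class with at least 20 cells, for the hay, concentrate and milk-only library, with 95% Poisson intervals. Milk only is the top point for FOS, JUN and ATF3 in every keratinocyte class and the lowest for FOS and JUN in macrophages or dendritic cells.

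In macrophages or dendritic cells FOS, JUN and ATF3 were higher with both solid feeds than with milk only, the opposite direction to keratinocytes. In this class FOS had 1642 CPM (1402 to 1912) in 22 hay cells, 4067 CPM (3772 to 4380.1) in 37 concentrate cells and 222 CPM (361 UMIs) in 104 milk-only cells. It was thus 7.39 times (6.11 to 8.90) the milk-only level in hay and 18.3 times (16.1 to 20.8) in concentrate. JUN had 1612 CPM in hay, 2667 CPM in concentrate and 483 CPM in milk-only cells of this class, a ratio to milk only of 3.34 and 5.52. ATF3 had 594 CPM in hay, 709 CPM in concentrate and 183 CPM in milk-only cells, a ratio of 3.25 and 3.88 (3.11 to 4.80). FOSB rested on 2 UMIs in hay, with a ratio to milk only of 0.328 (0.0392 to 1.22), and had 249.8 CPM in concentrate and 60.3 CPM in milk-only cells, a ratio of 4.14 (2.82 to 5.98) for concentrate. In milk-only macrophages or dendritic cells FOSB stood apart from the other 3 genes, at 2.56 times the level of the other keratinocytes of that library, while FOS was at 0.117, JUN at 0.179 and ATF3 at 0.367 of it. After thinning, a UMI of FOS was found in 68.2% (45.1 to 86.1) of hay, 77.1% (59.9 to 89.6) of concentrate and 24.0% (16.2 to 33.4) of milk-only cells of this class. The groups of macrophages differed in more than these genes. Heat shock and chaperone genes summed to 20377 CPM in hay, 21388 CPM in concentrate and 7999 CPM in milk-only cells, whereas the other immediate early genes summed to 1701, 4230.0 and 3873 CPM. The median cell had 3833 UMIs in hay, 3746 in concentrate and 13749 in milk only. KRT15, a basal keratinocyte keratin, was at 1157 CPM in hay, 587 CPM in concentrate and 2015 CPM in milk-only cells of this class, against 6584, 8796 and 9946 CPM in the other keratinocytes. The part of heat shock genes, depth and keratinocyte RNA in the result was not tested.

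In T or NK cells FOS had 1688 CPM (1416 to 1996) in 28 concentrate cells and 299.5 CPM (274 to 326) in 259 milk-only cells, and the hay library held only 6 such cells, with 30 UMIs of FOS. JUN had 1104 CPM in concentrate and 649 CPM in milk-only cells, a ratio of 1.70 (1.36 to 2.11). ATF3 had 124 CPM in concentrate and 125 CPM in milk-only cells, a ratio of 0.991 (0.468 to 1.86). FOS and JUN thus had the opposite order to keratinocytes here, and ATF3 did not differ beyond counting error. Keratinocyte RNA was present in these pools. KRT15 was at 2010.2 CPM in concentrate and 1975 CPM in milk-only T or NK cells, against 8796 CPM and 9946 CPM in the other keratinocytes of the same libraries. Relative to other keratinocytes, milk-only T or NK cells had 0.157 of the FOS, 0.240 of the JUN and 0.251 of the ATF3, and concentrate T or NK cells had 2.81, 1.57 and 1.85. The part of keratinocyte RNA in these values was not tested.

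**Figure D4:**
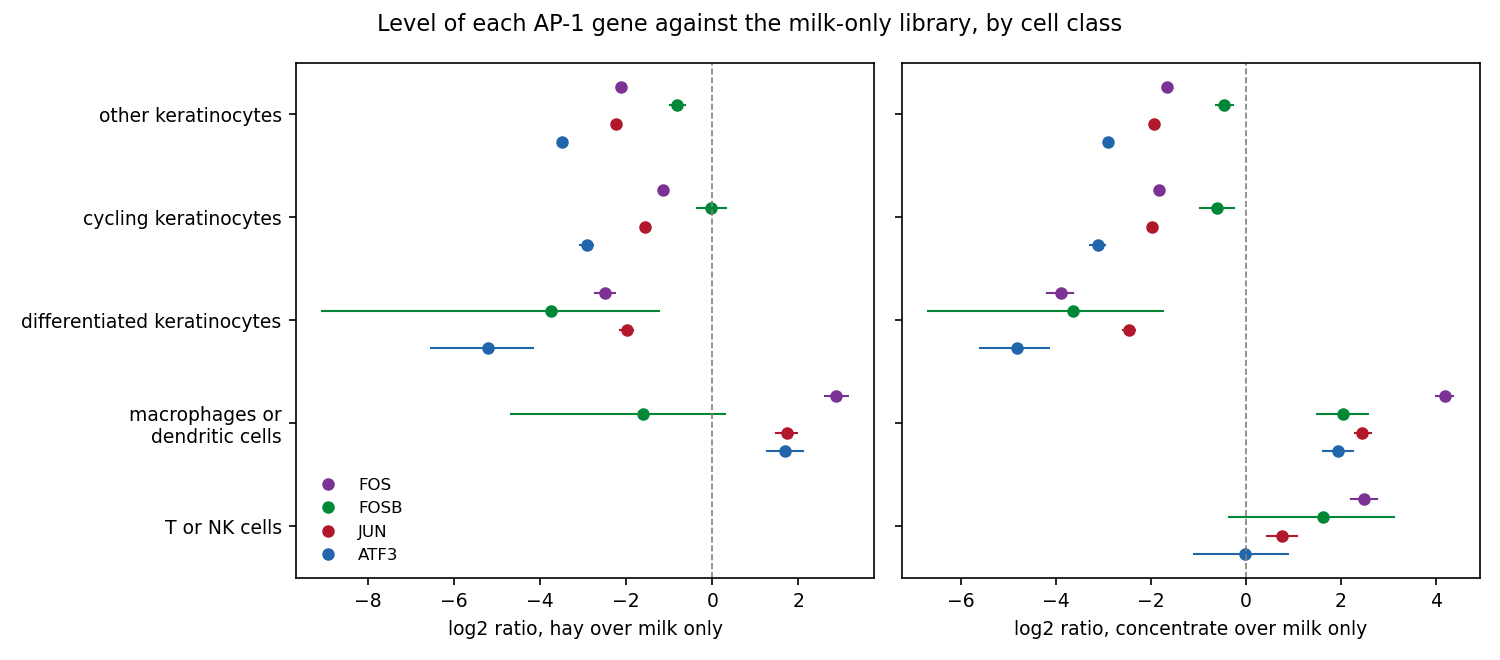
Log2 ratio of each AP-1 gene over the milk-only library (horizontal axis; 0 is no difference) in 5 cell classes, for hay on the left and concentrate on the right, with 95% intervals that cover counting error only. FOS, JUN and ATF3 lie left of 0 in the 3 keratinocyte classes, and FOS and JUN right of 0 in macrophages or dendritic cells and in concentrate T or NK cells. The 6 hay T or NK cells are not drawn.

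Stromal cells were found almost only in the concentrate library. Its 61 fibroblasts had 5161 CPM of FOS (4877 to 5458), 8.59 times the other keratinocytes of the same library. JUN was at 3958 CPM in the fibroblasts, 5.63 times those keratinocytes, ATF3 at 323 CPM, 4.80 times, and FOSB at 180.3 CPM, 10.4 times. Its 50 endothelial cells had 435 CPM of FOS and 2156 CPM of JUN, 0.724 (0.578 to 0.897) and 3.07 (2.78 to 3.38) times the other keratinocytes. ATF3 in endothelial cells was at 129.5 CPM, 1.93 (1.24 to 2.85) times those keratinocytes, and the ratio of FOSB was 1.49 (0.483 to 3.51). Fibroblasts were thus higher than keratinocytes in all 4 genes, and endothelial cells higher in JUN and ATF3 and lower in FOS.

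The mixture of the 4 genes differed between diets and classes. A ratio of UMIs between 2 genes depends on how well each is captured, so it is read here only between pools. In keratinocytes there were 0.789 (0.774 to 0.804) UMIs of FOS per UMI of JUN in hay, 0.820 (0.806 to 0.835) in concentrate and 0.677 (0.671 to 0.684) in milk only. ATF3 per FOS was 0.0942 (0.0898 to 0.0987) in hay, 0.111 (0.107 to 0.116) in concentrate and 0.265 (0.261 to 0.270) in milk only. FOSB per FOS went the other way, at 0.0299 in hay, 0.0291 in concentrate and 0.0129 in milk only. Milk-only keratinocytes were thus the ones with more ATF3 and less FOSB beside their FOS. The same held in the high clusters alone, where ATF3 per FOS was 0.104 in hay, 0.112 in concentrate and 0.275 in milk only. It was less clear in the low clusters. ATF3 per FOS was there 0.0310 in hay, 0.0984 (0.0832 to 0.116) in concentrate and 0.122 (0.108 to 0.138) in milk only. FOSB per FOS was 0.0103, 0.0175 and 0.00939, on 11, 29 and 22 UMIs of FOSB, with overlapping intervals. The ratio of FOS to JUN was 0.202 (0.158 to 0.256) in concentrate endothelial cells, 1.30 (1.20 to 1.42) in concentrate fibroblasts and 1.53 (1.35 to 1.72) in concentrate macrophages or dendritic cells. Differentiated keratinocytes of that library had 0.224 (0.181 to 0.275), so pools of 1 library differed in mixture beyond counting error.

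The 4 genes were found together in the same cells in each diet. In thinned keratinocytes FOS and JUN were both found in 1289 of 7002 hay cells where independence gives 566, in 886 of 4629 concentrate cells where it gives 374, and in 1114 of 3251 milk-only cells where it gives 585. That is 2.28, 2.37 and 1.90 times the expected number. The Pearson r of log2(UMIs + 1) between FOS and JUN was 0.70 in hay, 0.81 in concentrate and 0.81 in milk only. For FOS with ATF3 it was 0.53 in hay, 0.65 in concentrate and 0.71 in milk only, and for JUN with ATF3 0.46, 0.54 and 0.71. The pairs of ATF3 with FOS and with JUN thus had their highest r in milk only. The 3 pairs with FOSB, ATF3 among them, had their lowest r there: FOS with FOSB gave 0.38 in hay, 0.46 in concentrate and 0.29 in milk only. FOSB was nevertheless nested in FOS-positive cells, since 146 of 152 hay, 148 of 155 concentrate and 95 of 100 milk-only cells with FOSB also had FOS. FOSB and ATF3 were found together 9.83 times as often as independence gives in hay, 7.86 times in concentrate and 3.21 times in milk only. The highest value this ratio can take falls as the more frequent gene is found in more cells, so its order between libraries is not read. Of the cells with FOSB, 80 of 152 in hay, 85 of 155 in concentrate and 81 of 100 in milk only also had ATF3. These values describe the cells of 1 library per diet, and the share of positive cells differed between them.

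Among all genes found in at least 5% of cells, JUN had the highest r with FOS in each library and FOS the highest r with FOSB. For ATF3, FOS ranked 1 in hay, 1 in concentrate and 2 in milk only. Within the high cluster of hay the r of FOS with JUN was 0.68 and within that of concentrate 0.80, close to the values over all keratinocytes. Within the milk-only high cluster r was 0.31. There FOS was found in 922 and JUN in 1007 of 1011 cells, too nearly all for co-detection to be read, and without that cluster r over the milk-only keratinocytes was 0.69. Within the low clusters r was 0.25 in hay, 0.41 in concentrate and 0.47 in milk only. Only the milk-only library had immune pools of at least 50 thinned cells. In its 104 macrophages or dendritic cells r was 0.45 for FOS with JUN and -0.10 to 0.17 for the other 5 pairs. In its 255 T or NK cells it was 0.39 for FOS with JUN. Both values for FOS with JUN lay within the range of the low keratinocyte clusters. The part of the low levels in these r was not tested.

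**Figure D5:**
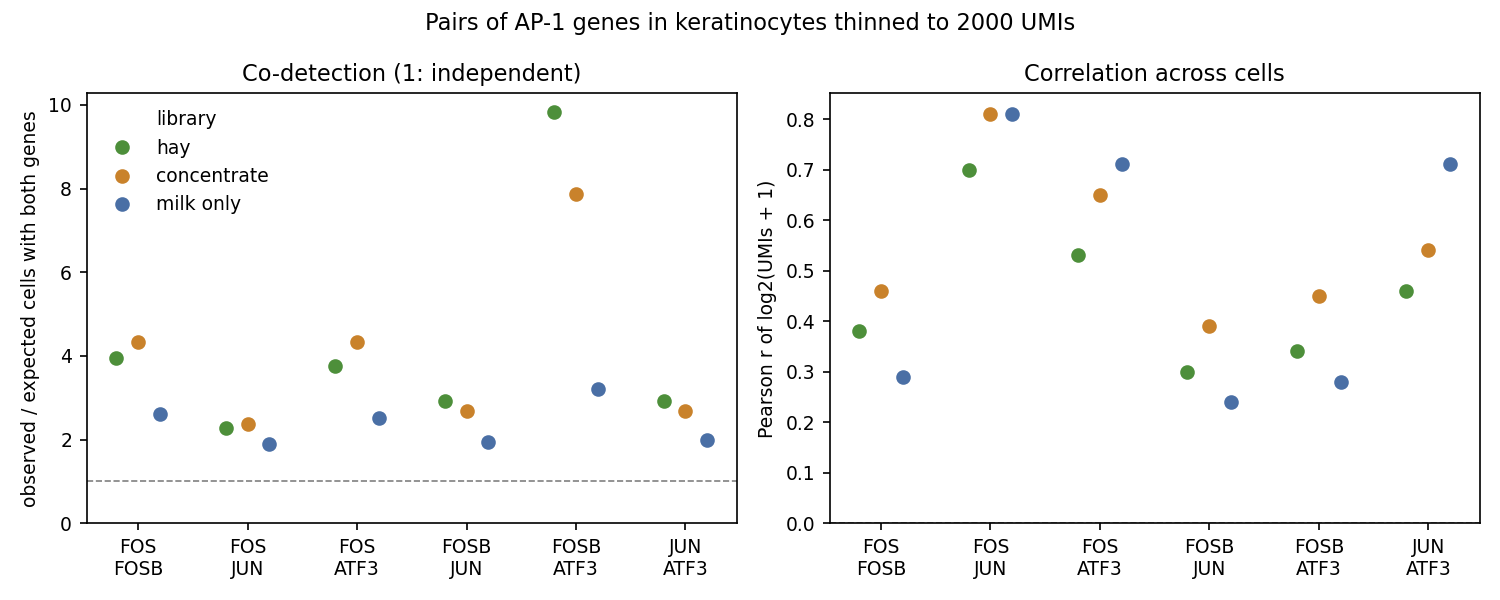
Left, number of thinned keratinocytes with both genes of a pair divided by the number expected if the genes were independent (dashed line at 1); right, Pearson r of log2(UMIs + 1) across the same cells, for the 6 pairs in the hay, concentrate and milk-only library. Hay and concentrate lie above milk only for co-detection in all 6 pairs, a ratio whose upper limit falls as the more frequent gene is found in more cells. FOS with JUN has the highest r in each library, and pairs of ATF3 with FOS or JUN have their highest r in milk only.

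Other immediate early genes, such as ZFP36, were among the genes whose level across keratinocytes was most like the sum of the 4 AP-1 genes. Of 1692 genes found in at least 5% of cells in every library, ZFP36 ranked first with r of 0.63 in hay, 0.77 in concentrate and 0.91 in milk only. NFKBIA, the inhibitor of NF-kB, had a mean r of 0.53 over the 3 libraries, and GADD45B, a stress-response gene, 0.52. UBB, which encodes ubiquitin, had 0.45. KLF10, BHLHE40 and CCNL1 followed at 0.41, 0.39 and 0.36. Each of these genes had its highest r in milk only. At the other end were CA1, a carbonic anhydrase, with a mean r of -0.52, MGST3 with -0.45, COX5B, a subunit of cytochrome c oxidase, with -0.35, and FABP4, a fatty acid binding protein, with -0.35. The negative r of CA1 was -0.43 in hay, -0.62 in concentrate and -0.52 in milk only.

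Across 13 pools of a library and a class, which share libraries and are no independent samples, the genes most like each member differed. For FOS they were EGR1, SERPINH1 and IGFBP6 with r of 0.98, 0.97 and 0.96 of log2(CPM + 1), and JUN ranked 8 of 4451 genes at 0.91. For JUN they were IGFBP6, TFPI2 and SNRPB2 at 0.94 each, and FOS ranked 11. For FOSB they were DTX3, SLC43A1 and KHDRBS1 at 0.95, 0.94 and 0.93, and for ATF3 ZFP36, CDKN2AIP and BTG2 at 0.96, 0.94 and 0.94. Several of the genes named for FOS and JUN, such as SERPINH1, a collagen chaperone, are known from fibroblasts, the pool with the highest FOS.

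The lists that follow group genes of the pathway by role, and the median log2 ratio of all measured genes, -0.17 for hay and 0.04 for concentrate, stands beside them. The signals that reach the AP-1 genes came first in this order: of the growth factor, MAP kinase and serum response genes, 4 of 12 measured were lower in hay and 3 of 13 in concentrate, with none higher and medians of -0.51 and -0.34. Beside the 21.4% and 13.0% of all measured genes called lower, so few genes give no result about the list. AREG, which encodes an EGF receptor ligand, was at 27.2 CPM in hay, 28.6 CPM in concentrate and 122 CPM in milk only. HBEGF, another ligand of that receptor, had log2 ratios of -1.22 in hay and -0.97 in concentrate. The kinase genes MAPK3 (log2 ratio -0.80 in hay and -0.18 in concentrate) and MAPK13 (-0.42 and -0.65) were each called on 1 diet. The widest differences in this list were in genes of ligands.

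Other immediate early genes were lower with both solid feeds: 13 of 13 measured in hay and 13 of 13 in concentrate, with medians of -2.29 and -2.10. Of all measured genes, 21.4% were called lower in hay and 13.0% in concentrate. SOCS3 reached the 10 CPM of a measured gene in milk only alone, so it could be called lower but not higher. ZFP36 was at 149 CPM in hay, 199 CPM in concentrate and 1934 CPM in milk only, a difference of 13.0-fold and 9.72-fold. SOCS3, an inhibitor of cytokine signalling, was at 3.62, 5.58 and 33.3 CPM, GADD45B at 52.6, 104 and 432 CPM, and BTG2, a growth-restraining gene, at 19.2, 20.3 and 118 CPM. Across thinned keratinocytes this list had an r with the summed AP-1 genes of 0.66 in hay, 0.74 in concentrate and 0.89 in milk only. Of the inhibitors that feed back on MAP kinase and NF-kB signals, 3 of 4 were lower on each diet, beside 21.4% and 13.0% of all measured genes. Their medians were -2.42 and -2.09. NFKBIA was at 132 CPM in hay, 132 CPM in concentrate and 1167 CPM in milk only, and TNFAIP3, which also restrains NF-kB, at 4.19, 4.39 and 62.2 CPM. TNFAIP3, like SOCS3, reached 10 CPM in milk only alone. SPRY1, a MAP kinase inhibitor, had log2 ratios of -1.70 and -1.02, and SPRED1 of -0.51 and -0.22.

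Of the rest of the AP-1 and ATF family, 3 of 9 genes measured were lower in hay and 2 in concentrate, with medians of -0.46 and -0.21, again near the share of all genes called lower. JUNB, a JUN-type partner, was at 6.28 CPM in hay, 7.44 CPM in concentrate and 20.2 CPM in milk only, 3.22-fold and 2.72-fold lower. FOSL2, a FOS-type partner, was lower in hay, with a log2 ratio of -0.80, and not in concentrate, at 0.53. ATF4, the effector of the integrated stress response, was at 239, 372 and 576 CPM, and ATF2, a stress-activated partner of JUN, had log2 ratios of -0.49 and -0.12. In the integrated stress response list 8 of 8 genes were lower in hay and 5 of 8 in concentrate, beside 21.4% and 13.0% of all measured genes. The medians of this list were -1.12 and -0.99. GADD45A, a growth arrest gene, was at 7.61 CPM in hay, 6.36 CPM in concentrate and 54.4 CPM in milk only, and DDIT3, which encodes CHOP, at 10.1, 8.86 and 52.5 CPM. GADD45A and JUNB reached 10 CPM in milk only alone, so they could be called lower but not higher. HSPA5, the chaperone of the endoplasmic reticulum, had log2 ratios of -0.83 and -1.41, and HERPUD1 of -1.12 and -1.34. Of 11 heat shock genes measured, 4 were higher and 1 lower in hay, beside 5.11% and 21.4% of all measured genes. In concentrate 2 were higher and 1 lower, beside 9.64% and 13.0%, which gives no result about the list there. The list medians were 0.47 and 0.08, so no general decrease like that of FOS, JUN and ATF3 was seen on either diet. HSPA6 was at 55.3 CPM in hay, 44.0 CPM in concentrate and 16.3 CPM in milk only. HSPH1 had log2 ratios of 1.06 and -0.04, HSPA1A of 0.60 and 0.75, and HSPB1, a small heat shock protein gene, of -0.81 and -0.78.

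Of known AP-1 targets, 6 of 9 were lower and 1 higher in hay, and 7 of 9 lower and 1 higher in concentrate, with medians of -2.07 and -1.17. Of all measured genes, 21.4% were lower and 5.11% higher in hay, and 13.0% lower and 9.64% higher in concentrate. The gene called higher on both diets was MMP9, which encodes a gelatinase, at 13.5 CPM in hay, 12.5 CPM in concentrate and 3.34 CPM in milk only. It lies outside the naming rule and was named after its values were seen. The widest differences were in MMP13, a collagenase gene, at 0.133, 0.382 and 18.1 CPM, in S100A8 at 31.0, 101 and 1528 CPM and in S100A9 at 25.3, 44.1 and 1186 CPM. TGM1, which cross-links the cornified envelope, was at 4.48, 8.01 and 59.5 CPM. MMP13 and TGM1 reached the 10 CPM of a measured gene in milk only alone, so they could be called lower but not higher. MMP9 reached it only with solid feed, where the reverse holds. TGM1 is also one of the differentiation markers, and differentiated keratinocytes were more frequent in milk only by the shares given above. Within keratinocytes this list did not track the AP-1 genes, with an r of 0.04 in hay, 0.02 in concentrate and -0.23 in milk only.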

How the data were processed

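The deposited files hold raw UMI counts per gene and barcode. Per the file headers they were made with cellranger 5.0.0, whereas the submitters' processing notes name Cell Ranger 3.1. The genome build, the annotation release and the rule that selected the barcodes are not given in the labels, headers or notes. The deposited tables held 9543 hay, 9214 concentrate and 7032 milk-only barcodes.

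Barcodes were kept where they held 500 genes or more and where 13 mitochondrial genes made up less than 20% of the UMIs, which left 45222107 hay, 45148772 concentrate and 50714838 milk-only UMIs. No doublet caller was run and doublets were not removed. A cell was given the class of the non-epithelial marker list of which it held most, at least 3 different markers being needed, then cycling, then differentiated, and otherwise counted among the other keratinocytes. UMIs were summed per library and class. The 95% intervals are exact and cover counting error only: Poisson for a level, binomial conditional on the summed UMIs for a ratio, and Clopper-Pearson for a share of cells. There is no test between diets. Measured genes had at least 10 CPM in at least 1 of both libraries, and called genes differed at least 1.5-fold with an interval that excludes 1. Shares and coupling were computed after thinning each cell to 2000 UMIs. Leiden clusters used 2000 variable genes without the 4 members, 30 principal components, 15 neighbours and a resolution of 0.6, with no integration of libraries. The calculations were tested on simulated data. Python 3.11.15, numpy 2.4.6, scipy 1.17.1, pandas 2.3.3, scikit-learn 1.9.0, leidenalg 0.10.2 and matplotlib 3.10.9 were used.

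The members and gene lists were chosen with earlier results of these data known. Besides the members, the genes named are up to 4 per list with the largest absolute log2 ratio against milk only, the 8 genes most like the summed members across keratinocytes and the 3 most like each member across pools of at least 50 cells. A gene that this rule names is not reported here. Genes at the opposite end of that ranking and the leading genes of clusters were added after their values were seen. Alternatives varied the filters, scaling, marker gates, thinning, clusters and cells entered.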

Additional observations from a re-analysis of the deposited data

Results flagged for a closer look

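The summed log2 ratio of the 4 AP-1 genes against milk only was positive in macrophages or dendritic cells, at 2.03 for hay (22 cells) and 3.02 for concentrate (37 cells), where keratinocytes had -1.80 and -1.66. In T or NK cells it was 1.44 for concentrate (28 cells). These were marked because the direction was opposite in the 2 kinds of cells of the same libraries. The difference itself was not tested, since each diet had 1 library.

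AP-1 UMIs were also found in barcodes left out of all comparisons. Those with under 500 genes had a summed level of 91.5 CPM in the hay, 90.8 CPM in the concentrate and 103 CPM in the milk-only library. Those with at least 500 genes and 20% or more mitochondrial UMIs had 240.0 CPM in the hay, 262 CPM in the concentrate and 705 CPM in the milk-only library, the same order as in the kept keratinocytes.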

How the results depend on the processing

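No paired analysis was possible because each diet had 1 library, and no replicate could be left out. The summed AP-1 log2 ratio was -1.80 for hay and -1.66 for concentrate over milk only, and 0.13 for concentrate over hay. In this order of comparisons, it was -1.85, -2.04 and -0.18 with at least 1000 genes per cell, -1.70, -1.35 and 0.35 under 10% mitochondrial UMIs, -1.89, -1.73 and 0.16 with no mitochondrial limit, -1.64, -1.70 and -0.06 with median-of-ratios scaling, -1.69, -1.60 and 0.09 with totals without ribosomal protein and mitochondrial genes, -1.74, -1.04 and 0.70 with each cell weighted alike, and -2.26, -1.89 and 0.37 in keratinocytes neither cycling nor differentiated. Hay and concentrate against milk only gave -1.77 and -1.64 with at least 200 genes, -1.81 and -1.68 with a common minimum of 2263 UMIs, -1.81 and -1.68 with gates of 2 markers, and -1.77 and -1.63 with gates of 4. Without the milk-only AP-1-high cluster, which was picked by its level, the sums turned to 0.06 and 0.19, FOS to 0.35 and 0.50, FOSB to 1.57 and 1.66, and JUN for concentrate to 0.04, while ATF3 kept its direction under all 17 alternatives, between -3.49 and -0.92 for hay and between -3.10 and -0.53 for concentrate. The cause was not tested.

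Alternatives chosen after seeing the data were gates on thinned cells, cells without shared barcodes, and sets of clusters. Gates on thinned cells gave -1.77 and -1.63. Without the 3 AP-1-high clusters the 3 comparisons gave -1.09, -1.32 and -0.23, the low clusters alone -1.08, -0.59 and 0.49, and the high clusters alone -2.31, -0.94 and 1.36. FOSB reversed for hay against milk only without the high clusters (0.13), and for concentrate against milk only under 10% mitochondrial UMIs (0.24), with cells weighted alike (0.44) and in the high clusters (0.59). For concentrate against hay, FOS and JUN reversed with at least 1000 genes (-0.25 and -0.15), with median-of-ratios scaling (-0.04 and -0.10) and without the high clusters (-0.59 and -0.03). The r of FOS with JUN was 0.59 in hay, 0.76 in concentrate and 0.74 in milk only at 1000 UMIs per cell, 0.76 in hay and 0.84 in milk only at 4000, and as Spearman's rho 0.62 in hay and 0.69 in concentrate. It was 0.69 in milk only without the high cluster. In keratinocytes of the high cluster it was 0.68 in hay and 0.32 in milk only, and in those of the low cluster 0.25 in hay, 0.41 in concentrate and 0.47 in milk only. Pools of fewer than 50 immune cells and FOSB, with 599 to 819 UMIs in keratinocytes, limit what the depth can show.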
